A study of Homo sapiens with 95 samples.

Results

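The response of GFP control cells to benzo[a]pyrene (BaP) was measured in 6 of the 95 wells of the series: 3 wells labelled GFP under BaP were compared with 3 wells labelled GFP under DMSO, the solvent in which the chemicals were delivered. The wells were chosen by their labels alone, and no measured value entered the choice. All wells held AALE, a single immortalized line of human bronchial epithelial cells that was grown to confluence before the medium was changed and the chemical added. The GFP cells had been transfected with a plasmid that carries Cas9 and EGFP but no guide RNA, so no gene was targeted in them and there is no knockout to check. BaP was given at 173 µM, and the length of the exposure is not given in the sources used here. The assay was 3′ digital gene expression, a sequencing method that reads the 3′ end of polyadenylated transcripts and counts molecules by a random tag, the unique molecular identifier (UMI). GFP cells under cigarette smoke condensate (CSC, 24 µg/ml) or under the nitrosamine NNK (490 µM), and BaP and DMSO wells of cells with a FAT1 knockout or with overexpressed PIK3CA, NRF2 or NRG1, were used only to show where the response differed.

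BaP is a polycyclic aromatic hydrocarbon of tobacco smoke. It binds the aryl hydrocarbon receptor (AHR), which moves to the nucleus, pairs with ARNT and switches on genes for enzymes that oxidize such compounds, first among them the cytochromes P450 CYP1A1 and CYP1B1. Those enzymes turn BaP into epoxides and quinones that can bind DNA or generate oxidants. Oxidants and electrophiles in turn release the transcription factor NRF2 (gene NFE2L2) from KEAP1, and NRF2 raises genes for glutathione and thioredoxin metabolism, for reductases and for iron storage.

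The DMSO wells held between 1191511 and 1364142 counted UMIs, and the BaP wells between 940354 and 1293174. Pairs of replicate wells differed slightly more than counting alone would give, with a chi-square per degree of freedom of 1.24 to 1.34 for DMSO and 1.21 to 1.53 for BaP, so no well was a copy of another. The cells carried markers of bronchial basal epithelium: all 9 listed markers were tested, and their summed counts ran from 998 to 1194 in the DMSO wells and from 646 to 838 in the BaP wells. Markers of other cell types were at or near 0. The 6 secretory markers on the list had no count in any well, and the summed counts of ciliated, fibroblast and endothelial markers stayed at 4 or below in every well. Those of 8 leukocyte markers summed to 13 to 21 counts under DMSO and 10 to 25 under BaP, with 3 of the 8 at 0. In bulk wells of this kind, fewer cells of a type and less RNA per cell cannot be told apart. The DMSO wells lay in plate row A and the BaP wells in row E, so chemical and plate row cannot be told apart either, and the well barcodes of the DMSO wells held 1 G or C base each against 3 to 5 in the BaP wells. The study counts the wells of a group as biological replicates. How far back their cultures were separate is not given in the sources used here, so p-values measure the spread between wells.

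In all, 10690 genes with a mean count above 1 over the 6 wells were tested. With limma and an adjusted p below 0.05, 119 genes were higher under BaP, 1.11% of those tested, and 42 were lower, or 0.393%, together 1.51%. Most changes were small. The median log2 fold change was 0.33 among the genes called higher and -0.57 among those called lower, while over all tested genes it was -0.004. A change of at least 1 on the log2 scale was seen for 18 of the genes called higher and for 7 of those called lower. In 155 of the 161 called genes, the BaP wells all lay on one side of the DMSO wells. Among all tested genes, all BaP wells lay above all DMSO wells in 8.08% and below them in 7.77%. The balance between rises and falls depended on scaling: with library totals in place of TMM factors, 62 genes were higher and 89 lower, so that 41.1% of calls were rises against 73.9%, and the median over all genes moved to -0.072. Without the first BaP well, the deepest of its group, 106 genes were called.

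**Figure D1:**
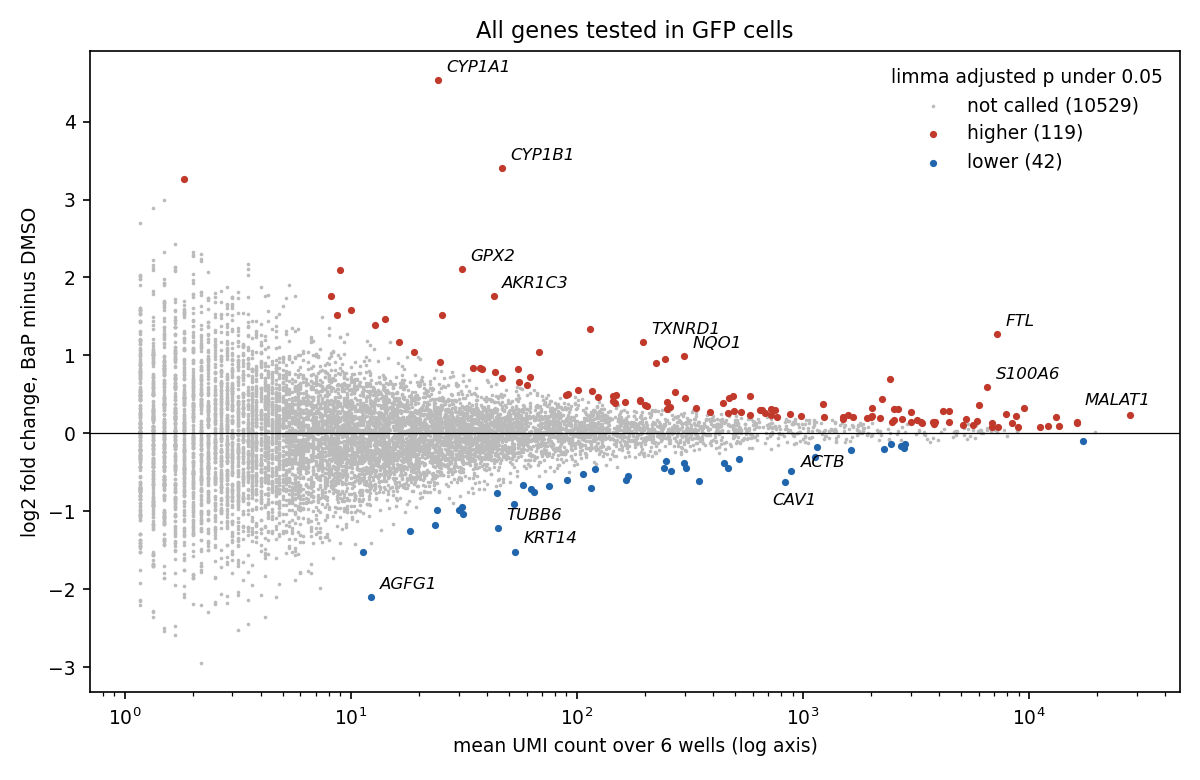
Each point is 1 of the 10690 genes tested in GFP cells, with the mean UMI count over the 6 wells on the x axis (log scale) and the log2 fold change of BaP against DMSO on the y axis. The 119 genes called higher are red and the 42 called lower are blue, and CYP1A1, CYP1B1, FTL and S100A6 stand clear of the other genes of like count.

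Of the 161 genes, 28 passed under each of the 16 other settings tried, which included other tests, scalings, filters and the removal of each well in turn. These genes were singled out after their values were seen. The 19 that rose were CYP1B1, AKR1C3, PIR, FTL, TXNRD1, ALAS1, NQO1, IFI30, SRSF5, FXYD3, S100A6, GSTM3, PTGR1, ABRACL, MGST1, GAS5, TXN, PRDX1 and MALAT1. The 9 that fell were KRT14, TUBB6, PPP1CB, CAV1, SCD, CD24, KRT6A, ACTB and TUBA1C. CYP1A1, GPX2 and TIPARP passed in 15 of the settings and had no adjusted p in the remaining one. No called gene changed direction under any setting.

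Among genes under direct control of AHR, CYP1A1 and CYP1B1 had the widest rises of all called genes. Of 14 listed target genes, 11 were tested and 4 were called higher, none lower, and the median log2 fold change of the 11 was 0.995. Among all tested genes, 1.11% were called higher. This list and those below were chosen with earlier results of these data known, so their counts are a description and not a test. CYP1A1, which oxidizes BaP and lies on chromosome 15 at 75011883 to 75017877 (hg19, minus strand), gave 2, 1 and 3 counts in the DMSO wells and 60, 45 and 35 in the BaP wells. Scaled to a library total of 1000000 counts (CPM), its level rose from 1.53 ± 0.664 to 43.4 ± 8.53 (SD, n = 3). The log2 fold change was 4.53 (SE 0.56, limma adjusted p = 2.67e-08). With 6 DMSO counts in all, the ratio of the pooled counts per total was 26.6, with an exact 95% interval of 11.9 to 73.6 that covers counting error only. Every BaP well lay far above every DMSO well.

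CYP1B1, the related enzyme of extrahepatic tissues on chromosome 2 at 38294116 to 38337044 (hg19, minus strand), gave 12, 8 and 8 counts under DMSO and 87, 79 and 87 under BaP. Its level rose from 7.39 ± 2.30 to 79.5 ± 9.21 CPM (SD, n = 3), with a log2 fold change of 3.40 (SE 0.28, limma adjusted p = 8.77e-14) and a pooled ratio of 10.3 (95% interval 6.95 to 15.8). The groups did not overlap. TIPARP, an ADP-ribosyltransferase that AHR induces and that represses AHR in return, stood at 10.0, 8.94 and 14.8 CPM in the DMSO wells and 34.9, 42.5 and 24.0 CPM in the BaP wells. The log2 fold change was 1.52 (SE 0.27, limma adjusted p = 0.000134), and the lowest BaP well lay above the highest DMSO well. NQO1, a quinone reductase that responds to both AHR and NRF2, rose from 165.8, 194 and 163 CPM to 371, 341 and 324 CPM, a log2 fold change of 0.99 (SE 0.09, limma adjusted p = 5.48e-13).

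The other AHR targets were sparse or did not pass. CYP1A2 had at most 3 counts in a well, and its log2 fold change of 1.58 gave an adjusted p of 0.571 (limma). ALDH3A1, an aldehyde dehydrogenase, had 1, 8 and 3 counts under DMSO and 9, 3 and 11 under BaP, which overlapped. SLC7A5, an amino acid transporter, had a log2 fold change of -0.15, and NEDD9, STC2, SERPINB2 and XDH also did not pass. AHRR, the AHR repressor, CYP2S1 and UGT1A6 were at or below a mean of 1 count and were not tested. Genes of the receptor complex did not follow its targets: AHR itself had a log2 fold change of 0.13 (SE 0.32) and ARNT of 0.31 (SE 0.28), neither of them called. HSP90AA1, the heat shock protein that holds AHR in the cytoplasm, was called lower at -0.14 (SE 0.04, limma adjusted p = 0.0434), but its wells overlapped and the call was lost in 7 of the 16 other settings.

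The promoters of the called AHR targets are shown because AHR and ARNT bind a short core, GCGTG, which was searched on both strands and is in capitals (CACGC where it lies on the opposite strand). Each runs from 250 bases before to 50 after the gene's start in RefSeq (GRCh38.p14), 5′ to 3′ along the gene, and CYP1B1 had no entry. CYP1A1 lies at chr15:74725479-74725778 (minus strand), TIPARP at chr3:156674340-156674639 (plus strand) and NQO1 at chr16:69726511-69726810 (minus strand).
CYP1A1: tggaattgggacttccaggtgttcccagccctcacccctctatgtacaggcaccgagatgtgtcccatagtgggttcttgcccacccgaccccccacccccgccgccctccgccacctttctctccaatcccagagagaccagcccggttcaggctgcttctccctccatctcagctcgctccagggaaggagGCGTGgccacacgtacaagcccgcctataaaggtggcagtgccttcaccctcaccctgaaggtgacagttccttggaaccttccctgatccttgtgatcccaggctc
TIPARP: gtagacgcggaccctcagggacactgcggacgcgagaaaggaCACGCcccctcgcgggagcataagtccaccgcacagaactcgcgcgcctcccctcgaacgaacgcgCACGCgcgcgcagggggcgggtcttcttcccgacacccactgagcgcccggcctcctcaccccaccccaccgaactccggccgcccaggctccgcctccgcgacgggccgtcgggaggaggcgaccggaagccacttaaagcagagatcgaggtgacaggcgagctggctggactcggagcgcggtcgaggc
NQO1: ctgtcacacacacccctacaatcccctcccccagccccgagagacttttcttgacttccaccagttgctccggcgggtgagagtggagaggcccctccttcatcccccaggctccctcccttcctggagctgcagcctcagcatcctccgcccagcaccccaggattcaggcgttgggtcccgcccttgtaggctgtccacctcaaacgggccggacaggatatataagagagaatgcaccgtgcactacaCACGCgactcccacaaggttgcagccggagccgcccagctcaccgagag
CYP1A1 held 1 match, TIPARP 2 and NQO1 1. The core is common: it occurred in 36.3% of all 27305 promoters of the table, in 51.8% of those of tested genes, in 55.4% of the 101 available promoters of genes called higher and in 51.5% of the 33 available promoters of genes called lower. The match is thus a description of these windows and not a site.

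**Figure D2:**
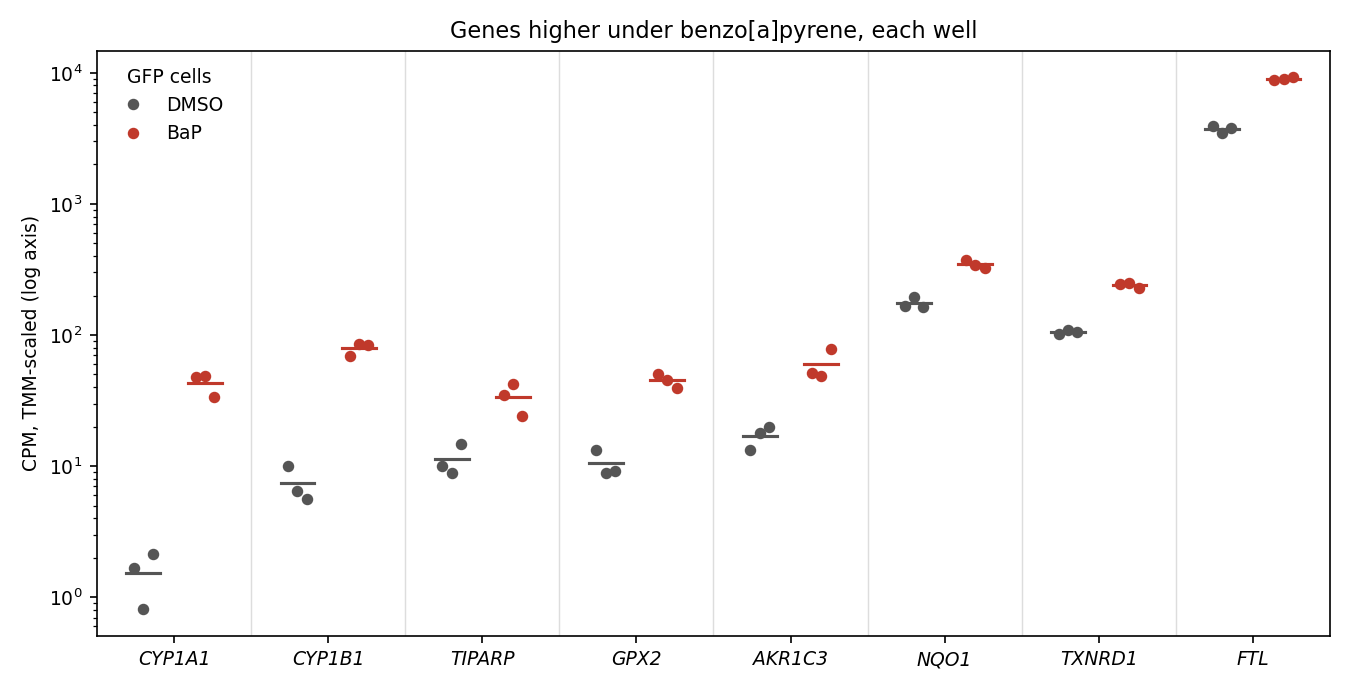
Each point is 1 well of GFP cells under DMSO (grey) or BaP (red), and the short lines are means of 3 wells. The y axis is the level in TMM-scaled CPM on a log scale; in all 8 genes shown the BaP wells lay above the DMSO wells, from CYP1A1 at 1.53 against 43.4 CPM to FTL at 3721 against 9021 CPM.

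FTL, the light chain of the iron store ferritin on chromosome 19 at 49468566 to 49470136 (hg19, plus strand), stood at 3892, 3467 and 3804 CPM in the DMSO wells and at 8862, 8975 and 9226 CPM in the BaP wells. The log2 fold change was 1.28 (SE 0.02, limma adjusted p = 1.94e-44), and it lay between 1.21 and 1.30 in all other settings. The heavy chain FTH1 had a log2 fold change of 0.22 and did not pass (limma adjusted p = 0.129). FTL was the only 1 of 10 tested genes of iron handling that was called, and the median of that list was 0.055. Over all tested genes, the share called higher was 1.11%. Both ferritin genes have many processed copies in the genome, which makes their level uncertain.

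Of the glutathione genes, GPX2, an epithelial glutathione peroxidase, was the only one called among 9 tested. It rose from 13.3, 8.94 and 9.19 CPM to 50.7, 45.8 and 39.3 CPM, a log2 fold change of 2.11 (SE 0.25, limma adjusted p = 1.43e-08), with no overlap. GCLC and GCLM, the subunits of the enzyme that starts glutathione synthesis, had log2 fold changes of 0.71 and 0.49, glutathione reductase (GSR) -0.42, and none of the 3 passed. The cystine carrier SLC7A11 stood at -0.12 and was not called. The median of the list was 0.103, and 1.11% of all tested genes were called higher.

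The thioredoxin system gave 3 called genes among 12 tested, all higher, against 1.11% of all tested genes, with a list median of 0.202. Thioredoxin reductase TXNRD1 stood at 102.5, 109.7 and 105.4 CPM under DMSO and at 243, 247 and 227 CPM under BaP, a log2 fold change of 1.17 (SE 0.10, limma adjusted p = 2.02e-13). Thioredoxin itself (TXN) rose less, by 0.37 (SE 0.02), from 4518 ± 54.4 to 5821 ± 104 CPM (SD, n = 3). Peroxiredoxin PRDX1 rose by 0.31 (SE 0.03), from 2003 ± 8.30 to 2494 ± 73.9 CPM. The groups did not overlap in any of the 3 genes. Sulfiredoxin SRXN1 had a log2 fold change of 0.98 and narrowly missed the threshold (limma adjusted p = 0.0527).

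Reductases of carbonyls and quinones gave 3 genes called higher of 11 tested, against 1.11% of all tested genes, and the list median was 0.626. AKR1C3 rose from 13.3, 17.9 and 19.8 CPM to 51.5, 49.0 and 78.7 CPM, a log2 fold change of 1.76 (SE 0.22, limma adjusted p = 4.25e-08). AKR1C1 gave a log2 fold change of 2.10 (SE 0.47) on 7, 2 and 3 counts against 19, 13 and 10, and AKR1B1 of 0.62 (SE 0.16). AKR1C1, AKR1C2 and AKR1C3 are near-identical in sequence, so the share of each is uncertain. AKR1C2 stood at 0.97 and was not called, nor was AKR1B10 at 0.64. PTGR1, which reduces reactive aldehydes, rose by 0.48 (SE 0.07).

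Among conjugating enzymes and transporters, 3 of 21 tested genes were called, all glutathione transferases: GSTM3 rose by 0.53 (SE 0.09), MGST1 by 0.44 (SE 0.04) and MGST3 by 0.21 (SE 0.05). For all tested genes, the share called higher was 1.11%. The median of the list was 0.085, and ABCC1 and ABCC4, which export conjugates, had 5 or fewer counts in each well. PIR, an iron-binding nuclear protein, rose from 57.1 ± 8.54 to 143.0 ± 21.2 CPM (SD, n = 3), which is 1.33 on the log2 scale (SE 0.14). SQSTM1, the autophagy receptor that binds KEAP1, gave 0.92 (SE 0.25, limma adjusted p = 0.0375), a call that 7 of 16 other settings kept. The message of NFE2L2 itself stood at 0.31 (limma adjusted p = 0.448) and that of KEAP1 at 0.60 (adjusted p = 0.696). None of the 8 tested genes of NADPH supply was called by limma, edgeR or DESeq2, with 2 at an unadjusted p under 0.05 (limma), all 8 values above 0 and a median of 0.277.

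The promoters below belong to some of the called antioxidant genes. They are shown for the core of the antioxidant response element, TGACNNNGC, which NRF2 and small MAF proteins bind. It was searched on both strands (GCNNNGTCA on the opposite strand), GCGTG was searched as before, and matches of either are in capitals. The windows are those of RefSeq (GRCh38.p14): GPX2 at chr14:64942696-64942995 (minus strand), TXNRD1 at chr12:104215529-104215828 (plus strand), PIR at chrX:15493284-15493583 (minus strand) and FTL at chr19:48965059-48965358 (plus strand).
GPX2: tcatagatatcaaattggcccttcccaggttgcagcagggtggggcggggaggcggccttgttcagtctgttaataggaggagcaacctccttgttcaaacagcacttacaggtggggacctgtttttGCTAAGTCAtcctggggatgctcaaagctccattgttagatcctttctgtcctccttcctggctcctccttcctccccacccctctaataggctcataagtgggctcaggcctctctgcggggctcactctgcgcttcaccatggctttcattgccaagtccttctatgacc
TXNRD1: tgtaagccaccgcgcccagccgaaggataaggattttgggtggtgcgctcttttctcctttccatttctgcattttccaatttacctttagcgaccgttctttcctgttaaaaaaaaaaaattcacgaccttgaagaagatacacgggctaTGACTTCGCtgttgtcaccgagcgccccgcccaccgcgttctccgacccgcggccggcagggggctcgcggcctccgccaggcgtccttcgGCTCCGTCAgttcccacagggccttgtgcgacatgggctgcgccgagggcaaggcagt
PIR: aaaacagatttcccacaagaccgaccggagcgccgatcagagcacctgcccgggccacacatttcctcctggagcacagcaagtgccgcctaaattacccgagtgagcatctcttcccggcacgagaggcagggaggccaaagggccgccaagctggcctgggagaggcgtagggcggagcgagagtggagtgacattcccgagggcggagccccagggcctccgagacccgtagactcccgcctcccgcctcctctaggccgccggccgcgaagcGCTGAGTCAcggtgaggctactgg
FTL: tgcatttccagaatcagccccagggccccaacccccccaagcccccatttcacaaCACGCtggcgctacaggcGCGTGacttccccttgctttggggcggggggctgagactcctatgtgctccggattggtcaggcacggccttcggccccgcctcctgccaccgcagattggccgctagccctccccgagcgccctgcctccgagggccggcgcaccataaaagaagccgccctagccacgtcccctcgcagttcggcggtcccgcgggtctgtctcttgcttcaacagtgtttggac
GPX2 and PIR held 1 match to the antioxidant core each and TXNRD1 held 2, whereas FTL held none and 2 matches to GCGTG. The windows of the called genes AKR1C3, AKR1C1, TXN, MGST1 and NQO1 also held no match to the antioxidant core, so the windows shown are not typical. The antioxidant core occurred in 13.6% of all promoters, in 15.3% of those of tested genes, in 21.8% of those of genes called higher and in 27.3% of those of genes called lower. No match says only that these letters are not in the window.

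**Figure D3:**
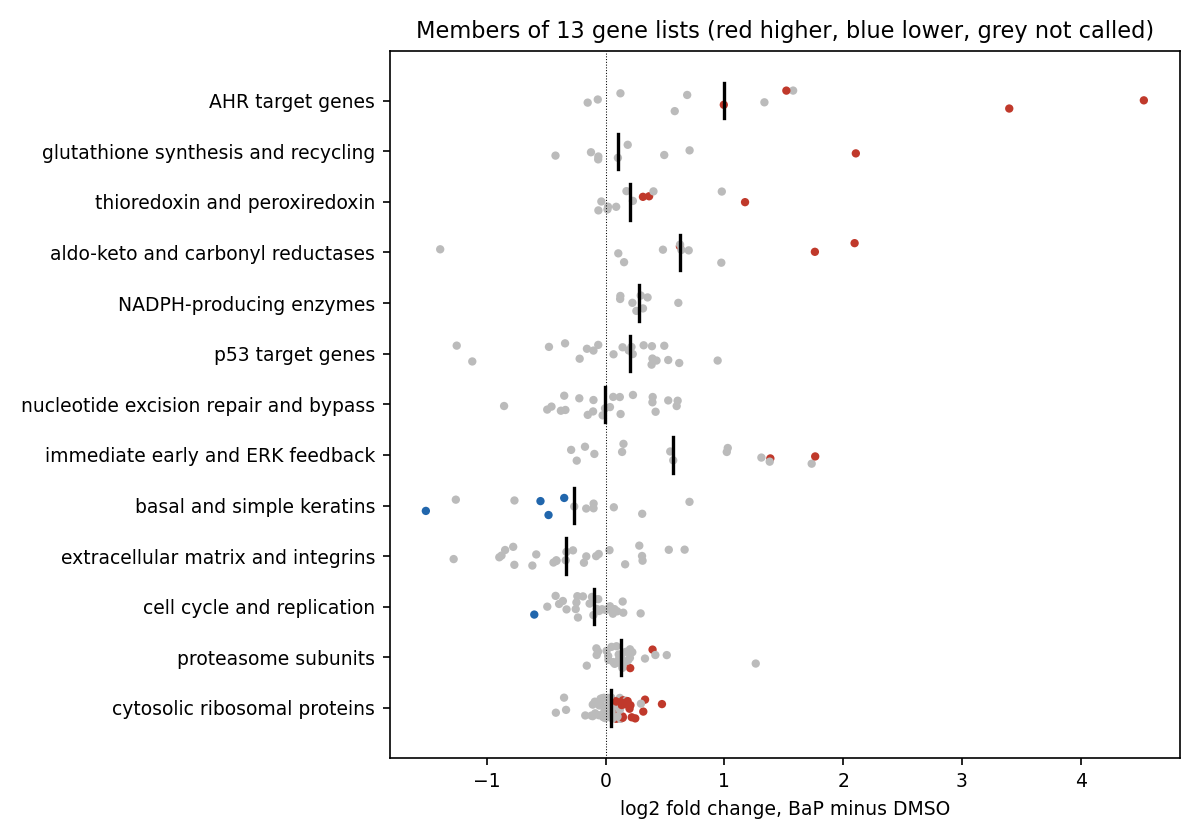
Each point is the log2 fold change of BaP against DMSO for 1 tested member of a gene list; red members were called higher, blue lower and grey not called, and the black bars are list medians. The AHR targets had a median of 0.995 and the carbonyl reductases of 0.626, against -0.265 for keratins and -0.331 for extracellular matrix genes.

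Keratins, the intermediate filament proteins of epithelia, gave 4 called genes of 13 tested, all lower, with a list median of -0.265. Among all tested genes, 0.393% were called lower. KRT14, a keratin of basal cells on chromosome 17 at 39738531 to 39743147 (hg19, minus strand), stood at 53.3, 74.0 and 65.8 CPM in the DMSO wells and at 21.4, 28.3 and 18.2 CPM in the BaP wells. The log2 fold change was -1.52 (SE 0.20, limma adjusted p = 2.10e-07), and the groups were well apart. Its partner KRT5 fell from 226, 315 and 229 CPM to 176.0, 177.6 and 189.9 CPM, a log2 fold change of -0.48 (SE 0.10, limma adjusted p = 0.00178). The second DMSO well was the high one, and without it the value was -0.32 with an adjusted p of 0.105 (limma). KRT6A fell by 0.55 (SE 0.11) and KRT19 by 0.35 (SE 0.09), the latter in 9 of the 16 other settings. KRT17 had a log2 fold change of 0.07 and was not called. Keratins share sequence, so UMIs of KRT14, KRT17 and KRT6A can be hard to assign.

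Of the 9 basal markers, KRT5, KRT14 and KRT19 were called lower, against 0.393% of all tested genes. TP63, the transcription factor that defines basal cells, stood at -0.16 and the adhesion molecule EPCAM at 0.07, neither called, and the integrin ITGA6 at -0.62 (limma adjusted p = 0.0783). DSP, which anchors keratins at desmosomes, fell by 0.45 (SE 0.10).

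CAV1, the coat protein of caveolae, fell from 833, 845 and 835 CPM to 524, 570 and 549 CPM, a log2 fold change of -0.62 (SE 0.06, limma adjusted p = 4.54e-12). ACTB, cytoplasmic actin, fell by 0.48 (SE 0.06), from 859 ± 41.4 to 615 ± 53.7 CPM (SD, n = 3). Of the tubulins, TUBB6 fell from 50.0, 54.5 and 50.9 CPM to 19.8, 22.9 and 24.0 CPM, a log2 fold change of -1.22 (SE 0.20, limma adjusted p = 2.54e-05), and TUBA1C fell by 0.44 (SE 0.07). TUBB fell by 0.21 (SE 0.04) and TUBA1B by 0.20 (SE 0.04), whereas TUBA1A rose by 0.84 (SE 0.21, limma adjusted p = 0.0163), from 21.6 ± 2.50 to 39.7 ± 7.66 CPM (SD, n = 3), a call kept in 11 of 16 other settings. In none of these genes did the wells of the groups overlap. MYL6, a myosin light chain, went the other way at 0.18 (SE 0.03), and ACTG1 stood at -0.43 without passing (limma adjusted p = 0.118). Actin and tubulin genes have near-identical relatives and processed copies, and their levels are uncertain.

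**Figure D4:**
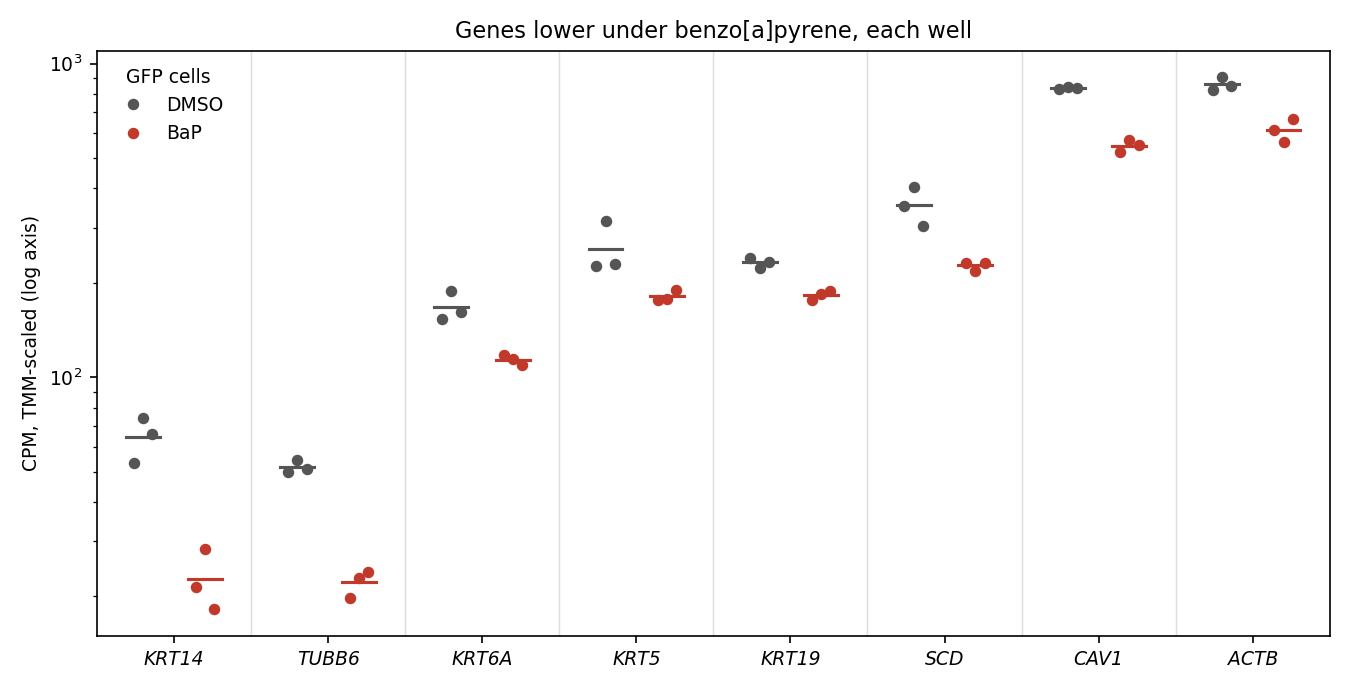
Each point is 1 well of GFP cells under DMSO (grey) or BaP (red), with means as short lines and TMM-scaled CPM on a log y axis. In all 8 genes shown the BaP wells lay below the DMSO wells, and the gap was widest for KRT14 and TUBB6.

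SCD, which makes monounsaturated fatty acids, fell from 352, 405 and 303 CPM to 231, 219 and 231 CPM, a log2 fold change of -0.62 (SE 0.09, limma adjusted p = 1.22e-06), while the sterol enzyme FDPS rose by 0.29 (SE 0.07). They were the called genes among 24 of sterol and fatty acid synthesis, whose median was -0.019. Glycolytic genes were also split: ENO1 rose by 0.28 (SE 0.03) and PGK1 by 0.22 (SE 0.06), and LDHA fell by 0.30 (SE 0.05), with the call for PGK1 lost in 9 of 16 other settings. SFRP1, a secreted antagonist of WNT, fell by 0.90 (SE 0.20) on wells of 50.0, 67.5 and 51.6 CPM against 23.0, 25.1 and 46.0 CPM. Without the first BaP well its value was -0.68 and it no longer passed (limma adjusted p = 0.152). AGFG1, which takes part in endocytosis, had the widest fall among the named genes, at -2.10 (SE 0.44, limma adjusted p = 0.00206), on 24, 17 and 21 counts in the DMSO wells against 4, 6 and 2 in the BaP wells. MKI67, a marker of cycling cells, fell by 0.60 (SE 0.14), but it was the only one of 28 tested genes of cell cycle and replication to pass, and their median was -0.100. For the lists in this paragraph, the shares over all tested genes were 1.11% called higher and 0.393% called lower.

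The 12 widest rises and 12 widest falls, among called genes with a mean of at least 10 counts and no overlap between groups, also held genes of mixed function. TMEM45B, a membrane protein, rose by 1.58 (SE 0.40) and WDSUB1, which joins WD40 repeats to a U-box, by 1.18 (SE 0.32). TMEM45B was not called between BaP and CSC (-0.002, SE 0.30) or NNK (0.05, SE 0.31). WDSUB1 was higher under BaP than under CSC by 1.62 (SE 0.38) and was not called against NNK. Among the falls were DCUN1D4 (-1.53), a neddylation factor, MPRIP (-1.26), which binds myosin phosphatase, and PRPS2 (-1.03), which makes the precursor of nucleotides. MARCKS (-0.99), an actin-binding kinase substrate, ATP2B1 (-0.98), a calcium pump, FAM115A (-0.95), EFEMP1 (-0.76), a fibulin of the matrix, and PRR11 (-0.75), a cell cycle protein, also fell. Each was called without overlap between the groups, but none of these 10 passed under every other setting. Under BaP in FAT1, PIK3CA, NRF2 and NRG1 cells, FAM115A kept its sign in 1 population, MPRIP in 2 and WDSUB1 in 3. The others kept it in all 4. TMEM45B, DCUN1D4, MPRIP, PRPS2, ATP2B1 and FAM115A were called in none of the 4. WDSUB1 and PRR11 were called in 1 each, and MARCKS and EFEMP1 in 2 each.

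Neither of the lists tied to DNA damage held a called gene. None of 22 tested p53 targets was called by limma, edgeR or DESeq2, with 3 at an unadjusted p under 0.05 (limma), 14 values above 0 and a median of 0.205. MDM2, the p53 antagonist, stood at 0.43 (SE 0.20, limma adjusted p = 0.418). Whether p53 works in this immortalized line is not given in the sources used here. The p53 list therefore cannot show whether DNA was damaged. None of 23 tested genes of nucleotide excision repair and bypass, which deal with bulky adducts, was called by the 3 tools, with 2 at an unadjusted p under 0.05 (limma) and a median of -0.006. Of 22 genes of the ATF4 and endoplasmic reticulum stress responses, limma and DESeq2 called 0 and edgeR 1, with 3 at an unadjusted p under 0.05 (limma) and a median of -0.060. Of 8 tested cytokine and NF-kB feedback genes, 0 were called by the 3 tools, with 2 at an unadjusted p under 0.05 (limma) and a median of 0.522. Of 25 extracellular matrix and integrin genes, limma and DESeq2 called 0 and edgeR 1, with 6 at an unadjusted p under 0.05 (limma) and a median of -0.331. Over all 10690 genes, edgeR called 164 and DESeq2 90, and 1144 had an unadjusted p under 0.05 (limma).

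Of 15 immediate early and feedback genes, which answer growth signals and stress within minutes, 2 were called higher and the median was 0.568. The share called higher among all tested genes was 1.11%. EGR1, a zinc finger transcription factor, rose from 3.33, 3.25 and 2.83 CPM to 11.9, 9.81 and 12.5 CPM, a log2 fold change of 1.76 (SE 0.44, limma adjusted p = 0.0155). The EGR1 call was lost without any 1 of the DMSO wells, without the first BaP well and in the fit of all groups together, with adjusted p of 0.0525 to 0.214 (limma). DUSP1, a phosphatase of MAP kinases, had a log2 fold change of 1.39 (SE 0.34). Its difference between BaP and CSC was -0.23 (SE 0.26) and between BaP and NNK 0.16 (SE 0.30), neither called. FOS at 1.74, JUN at 1.31 and MYC at 1.03 rested on 13 or fewer counts a well and were not called. The EGFR ligand AREG rose by 0.83 (SE 0.18), and ALDH1A3, which makes retinoic acid, by 1.46 (SE 0.34). S100A6, a calcium-binding protein, rose from 4414, 4454 and 4601 CPM to 6606, 6838 and 6974 CPM, a log2 fold change of 0.59 (SE 0.02, limma adjusted p = 9.81e-30), while its relative S100A10 fell by 0.18 (SE 0.03). FXYD3, a regulator of the sodium pump, rose by 0.69 (SE 0.04) and ALAS1, the first enzyme of heme synthesis, by 1.05 (SE 0.16).

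Genes of protein synthesis and respiration showed small shifts at high counts. Of 84 tested cytosolic ribosomal proteins, 22 were called higher and none lower, against 1.11% and 0.393% of all tested genes. The log2 fold changes were 0.08 to 0.47 among the 22, and the list median was 0.043. The largest, for RPL18, rested mainly on the second BaP well. Its wells stood at 340, 339 and 348 CPM under DMSO and 406, 801 and 355 CPM under BaP. RPS23, the next largest, gave the smallest adjusted p of the 22, with a log2 fold change of 0.33 (SE 0.02). It had 7276, 7210 and 7118 CPM under DMSO and 9170, 9643 and 8437 CPM under BaP. These calls moved with the processing: with library totals in place of TMM factors 8 were higher and 6 lower, with edgeR 10 were higher, and none passed when all groups of the series were fitted together. Of 80 tested subunits of oxidative phosphorylation, 5 were called higher, by 0.11 to 0.21, and none remained called with library totals. The BaP wells, in which these genes were higher, were also the wells with more G and C bases in their barcodes, and the part of the barcode in these shifts was not tested. Between BaP and NNK in GFP cells, 4 of 84 ribosomal proteins were higher under BaP and 3 lower, with a list median of -0.002. Ribosomal protein genes have many processed copies and their levels are uncertain.

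The response of GFP cells was set beside that of 4 other populations, whose BaP and DMSO wells were not shared with the GFP cells. Plate layout was alike in all: DMSO wells lay in rows A or B and BaP wells in rows E or F. Their barcodes held on average 1 G or C base under DMSO, and 4 (GFP) or 5 (the others) under BaP. A shared sign therefore cannot tell the chemical apart from plate row or barcode. Of the 119 genes higher in GFP cells, 110 were above 0 in FAT1 knockout cells, 117 in PIK3CA, 114 in NRF2 and 101 in NRG1 cells, where about 50.0% to 52.0% of all genes were above 0. Of the 42 lower genes, 38, 41, 41 and 36 were below 0 in the same order. The rises that passed again numbered 49 in FAT1 cells, where 1.63% of all genes were called in either direction, 58 in PIK3CA cells (1.17%), 71 in NRF2 cells (2.06%) and 31 in NRG1 cells (0.895%). CYP1A1 rose in all 4, by 2.62 to 6.13 on the log2 scale, and CYP1B1 by 2.84 to 4.26. TIPARP, NQO1, PIR, TXNRD1, FTL, TXN, MGST1, SQSTM1, EGR1 and S100A6 were also called higher in all 4, and CAV1, SCD and LDHA lower. KRT14 was below 0 in all 4 populations, from -1.06 to -0.42, but was called only in NRF2 cells, and AGFG1 was called in none.

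Direct tests of the difference between populations called few genes. The FAT1, NRF2 and NRG1 wells lay in plate rows B and F. Population and plate row therefore cannot be fully told apart in the tests against FAT1 cells and against the mean. Against FAT1 cells, 6 of 11107 genes differed (0.054%), 3 with the higher response in GFP cells (0.027%) and 3 with the lower (0.027%). Against PIK3CA cells, which shared plate rows A and E with the GFP cells, 7 of 11108 differed (0.063%), all with the higher response in GFP cells; with library totals 4 were higher and 1 lower. Against the mean of all 4 populations, 3 of 11306 differed (0.0265%). FTL was called in each of these comparisons: its response was 1.28 in GFP cells (SE 0.02), 0.93 in FAT1 cells (SE 0.03), 0.86 in PIK3CA cells (SE 0.01), 1.08 in NRF2 cells (SE 0.01) and 0.78 in NRG1 cells (SE 0.04), and the difference from their mean was 0.36 (SE 0.04, limma adjusted p = 1.09e-07). The response of CYP1A1 differed from the mean of the 4 by 0.25 (SE 0.64, limma adjusted p = 0.983) and that of CYP1B1 by 0.03 (SE 0.33, adjusted p = 0.996), with no call. In a single fit over all groups, none of these differences passed with limma, where 568, 491 and 532 genes had an unadjusted p under 0.05 against FAT1, PIK3CA and the mean; edgeR called 5, 5 and 6 genes and DESeq2 1, 3 and 2 in the fits of the compared groups. The counts against FAT1 were 3 without the second GFP DMSO well, 13 without the first FAT1 DMSO well and 17 without the third FAT1 BaP well. Against PIK3CA they were 4 without the second GFP DMSO or the second GFP BaP well, 14 without the first GFP DMSO well, 15 without the third GFP BaP well, 12 without the second PIK3CA DMSO well and 17 without the first PIK3CA BaP well. Against the mean they were 5 without the third NRG1 DMSO well or the first FAT1 DMSO well and 7 without the third GFP BaP well.

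Within GFP cells, BaP was compared directly with CSC and NNK, although the doses of the 3 chemicals are not matched. CSC is a mixture that itself holds polycyclic hydrocarbons. In the 12 GFP wells scaled together, CYP1A1 stood at 54.5, 44.6 and 51.5 CPM under CSC and at 47.9, 48.3 and 34.4 CPM under BaP, which overlapped (log2 difference -0.21, SE 0.17, limma adjusted p = 0.759). CYP1B1 was lower under BaP, with 69.4, 84.8 and 85.6 CPM against 100.3, 110.0 and 125.0 CPM (log2 difference -0.49, SE 0.13, limma adjusted p = 0.0360). NQO1 was also lower under BaP, by 0.51 (SE 0.07), as were FTH1 by 0.44 (SE 0.07) and TXN by 0.12 (SE 0.02). FTL was slightly higher under BaP, by 0.08 (SE 0.02), while TXNRD1 at -0.09 (SE 0.09) and GPX2 at 0.41 (SE 0.18) did not pass.

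Over all genes, 123 were higher under BaP than under CSC and 25 lower, together 1.41% of 10506. With library totals the split was 43 and 61, and without the first CSC well 95 genes were called. Of the 84 ribosomal proteins 44 were higher under BaP and none lower, with a list median of 0.135, and 16 of 80 respiratory subunits were higher. The CSC wells had 1 G or C base in their barcodes, on average, like the DMSO wells, against 4 in the BaP wells, and lay in plate row C; the part of either in these shifts was not tested. KRT6A was lower under BaP than under CSC, by 0.49 (SE 0.11), whereas KRT14 differed by -0.45 (SE 0.23) and did not pass.

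The NNK wells lay in plate row G, and their barcodes held 5 G or C bases on average, against 4 in the BaP wells. Chemical and plate row therefore cannot be told apart in this comparison either. Against NNK, 3 of 11 AHR targets, 1 of 9 glutathione genes and 2 of 11 thioredoxin genes were higher under BaP, and none of these was lower. Among all genes tested in this comparison, 0.266% were higher under BaP and 0.228% lower. CYP1A1 stood at 9.55, 9.63 and 14.7 CPM under NNK, below every BaP well, and the log2 difference was 1.91 (SE 0.28, limma adjusted p = 8.52e-07). CYP1B1 stood at 10.4, 15.0 and 26.6 CPM, a difference of 2.26 (SE 0.24, limma adjusted p = 1.13e-11). FTL was higher under BaP by 0.93 (SE 0.04), TXNRD1 by 0.80 (SE 0.11), NQO1 by 0.69 (SE 0.10), GPX2 by 1.41 (SE 0.24) and AKR1C3 by 0.93 (SE 0.20). KRT14 was lower under BaP by 1.05 (SE 0.22) and CAV1 by 0.45 (SE 0.08). Sterol genes separated the pair in the other direction: 7 of 24 genes of sterol and fatty acid synthesis were lower under BaP, with a list median of -0.495, and FDPS stood at 700.5, 683.9 and 791.0 CPM under NNK against 482.8, 418.8 and 496.0 CPM under BaP (log2 difference -0.64, SE 0.08, limma adjusted p = 7.94e-09).

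The NNK wells were the least alike of the GFP wells, with a chi-square per degree of freedom of 1.99 to 2.49 between pairs. In all, 28 genes were higher under BaP than under NNK and 24 lower, together 0.493% of 10542. The count was 34 without the first BaP well, 101 without the first NNK well and 25 without the third NNK well. Unlike the comparison with CSC, 4 of 84 ribosomal proteins were higher under BaP and 3 lower, with a list median of -0.002. RPS23 differed between BaP and NNK by 0.01 (SE 0.04, limma adjusted p = 0.968). Of 80 respiratory subunits, 1 was higher under BaP than under NNK and 0 lower.

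**Figure D5:**
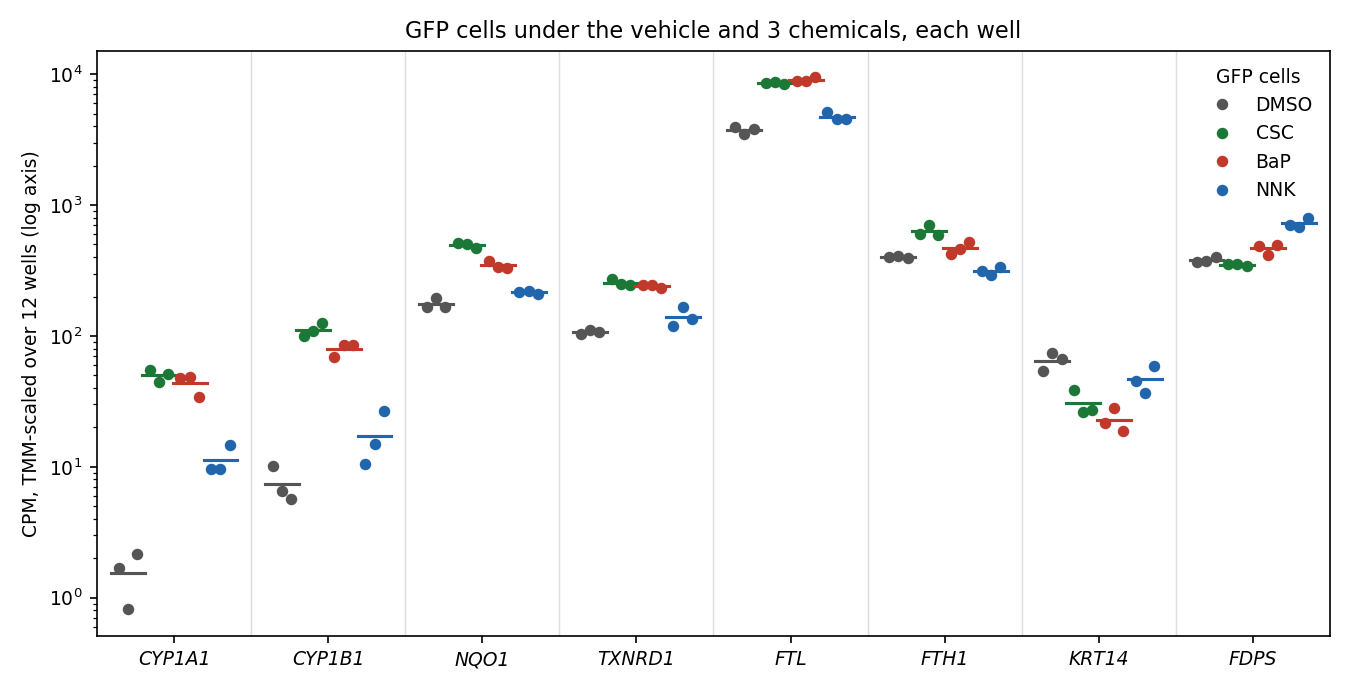
Each point is 1 GFP well under DMSO, CSC, BaP or NNK, with means as short lines and CPM scaled over all 12 wells on a log y axis. For CYP1A1, CYP1B1, TXNRD1 and FTL the BaP and CSC wells lay above the DMSO and NNK wells, while FDPS was highest under NNK.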

How the data were processed

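The authors deposited unnormalized UMI counts, 1 table a well, with the same 23895 gene symbols in each. According to the methods of the study, the authors received count matrices in which BWA (0.7.10 per the labels) had placed reads on RefSeq transcripts of hg19 and each UMI in a well added 1 count to its gene. UMIs matching a single gene were counted, so families with near-identical copies are uncertain, and whether strand was used is not given in the sources used here. Total counts were 940354 to 1364142 in the 6 wells.

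Groups came from the sample titles. Genes with a mean count above 1 over the compared wells were fitted with limma 3.58.1 (voom weights, TMM factors from edgeR 4.0.16, R 4.3.3), two-sided, with Benjamini-Hochberg adjustment over all genes tested and a threshold of 0.05. The 6 wells left 4 residual degrees of freedom, to which limma added 49.9 from the spread of all genes, so very small p-values rest mainly on that shared spread. Levels are CPM scaled by TMM factors. Differences between populations were tested as interaction terms over the wells compared. Alternatives were edgeR's quasi-likelihood test, DESeq2 1.42.0, RLE factors, library totals, no low-count filter, a mean count of at least 10, the 10000 most variable genes, the replicate number as a block, leaving out each well, and wider fits. The fits were tested on simulated counts.

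Genes were named by rule: CYP1A1 and CYP1B1, the 12 widest rises and 12 widest falls among called genes with a mean count of at least 10 and no overlap between wells, and members of the gene lists, called (at most 8 a list) or defining the list's role. Called genes named outside this rule (such as IFI30, ALAS1, FXYD3, PTGR1, AREG, DSP and the tubulins other than TUBB6, and those that passed under every setting) were chosen after their values were seen. For the other comparisons the rule takes up to 5 genes in each direction. Members and lists were chosen with earlier results of these data known. Gene positions are from GENCODE v44lift37 (hg19), which held 155 of the 161 called or named genes. Promoters are from RefSeq (GRCh38.p14), found for 8003 of 10690 tested genes. No coordinates were converted.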

Additional observations from a re-analysis of the deposited data

Results flagged for a closer look

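The results below were picked out because the BaP response of GFP cells differed from that of another population by a test of the difference itself (limma, interaction term). Values are differences of log2 fold changes, GFP minus the other population. Against FAT1 cells the difference was positive for MALAT1 (0.41), FTL (0.35) and NUSAP1 (0.40), and negative for RPL7A (-0.23), RPS21 (-0.29) and MT2A (-0.29). Against PIK3CA cells it was positive for FTL (0.43), S100A6 (0.30), TXNRD1 (0.73), TXN (0.17), RPS23 (0.25), RPL41 (0.11) and GAS5 (0.34). RPL41 and GAS5 fall outside the naming rule and are given because they passed. Against the mean of the 4 populations the difference was positive for FTL (0.36), S100A6 (0.23) and MALAT1 (0.26).

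These genes did not behave alike within the populations. FTL, TXNRD1, TXN and S100A6 rose in all 5, so the differences are of size. MALAT1, a nuclear long noncoding RNA, stood at 0.23 in GFP cells and at 0.16 in PIK3CA cells, both in plate rows A and E. It stood at -0.16, -0.07 and -0.05 in FAT1, NRF2 and NRG1 cells, all in plate rows B and F. Population and plate row cannot be told apart in this split, and MALAT1 was not called against PIK3CA cells. MT2A, a metallothionein, stood at -0.10 in GFP cells and at 0.20 in FAT1 cells. NUSAP1, a spindle protein, stood at 0.00 in GFP cells and at -0.39 in FAT1 cells.

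Calls for FTL against PIK3CA cells held in 20 of 21 other settings, as did those for S100A6 and TXNRD1 against the same cells. MT2A and NUSAP1 against FAT1 cells held in 8 and 7 of 21, and RPS23 against PIK3CA cells in 7 of 20. FTL held in 19 of 21 against FAT1 cells (lost with DESeq2) and in 37 of 39 against the mean. Against the mean, S100A6 held in 36 of 39 (lost with edgeR). MALAT1 held there in 33 of 38, lost with DESeq2, with library totals and without the first GFP BaP well. The single fit over all groups lost every one of these calls.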

How the results depend on the processing

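No named gene changed direction, while the balance of rises and falls turned over with library totals for BaP against DMSO (62 higher, 89 lower) and against CSC (43 and 61). Of the 127 counts of genes recomputed over the 6 comparisons, 89 stayed within 1.5 times the main count, and among values of named genes 1457 kept their call, 253 lost it and 17 had no adjusted p. For BaP against DMSO, DESeq2 called 90 genes, a single fit over all groups 47 and a fit sharing the spread of all GFP wells 106, against 161; leaving out 1 well gave 106 to 155. Against FAT1 cells the counts were 1 (DESeq2), 2 (most variable genes) and 0 (single fit; 568 genes at an unadjusted p under 0.05), and 3 to 17 without 1 well. Against PIK3CA cells they were 3 (DESeq2), 4 (no low-count filter), 4 (mean count of at least 10) and 0 (single fit; 491 unadjusted), and 4 to 17 without 1 well. Against the mean of 4 populations they were 6 (edgeR), 5 (RLE factors), 0 (no low-count filter, limma; 980 unadjusted), 6 (mean count of at least 10) and 0 (single fit; 532 unadjusted), and 2 to 7 without 1 well. Against CSC the single fit called 8 genes, and 95 to 143 were called without 1 well. Against NNK, DESeq2 called 26 and the single fit 20, and 25 to 101 were called without 1 well. The cause of these shifts was not tested. The shallowest BaP well had 940354 counts, which limits genes of a few counts a well, such as CYP1A2, AHRR and FOS.

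Same-numbered DMSO and BaP wells shared only a number and a plate column: the correlations of their deviations were 0.025, 0.012 and 0.000, and 4 of 6 wells correlated best with their own number. With the replicate number as a block, 220 genes were called for BaP against DMSO, 42 against FAT1, 24 against PIK3CA and 15 against the mean of 4 populations.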

Other observations

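Some gene groups not described above held small numbers of called genes in the comparison of BaP with DMSO. Of 31 tested proteasome subunits 2 were called higher, PSMB5 by 0.39 (SE 0.07) and PSMB1 by 0.21 (SE 0.04), and 27 of the 31 were above 0, with a median of 0.132 against -0.004 over all genes (limma, 1.51% of genes called). Of 21 tested interferon-stimulated genes, B2M, the light chain of MHC class I, was called higher by 0.28 (SE 0.03), from 3415, 3294 and 3515 CPM to 4137, 3992 and 4310 CPM. IFI30, a lysosomal thiol reductase, rose from 134.2, 143.9 and 159.8 CPM to 283.8, 281.1 and 283.0 CPM, a log2 fold change of 0.95 (SE 0.09). Of 10 tested metallothioneins, MT1X was called higher by 0.21 and MT2A lower, at -0.10, and their sequences are alike enough to make both uncertain. The MT2A wells overlapped and its call was lost in 7 of 16 other settings, edgeR and DESeq2 among them, and the MT1X call in 3. SERPINB13, a protease inhibitor of squamous epithelium, was the 1 called gene of 12 tested in squamous differentiation, at 0.66 (SE 0.18), and held in 9 of 16 other settings. Of 12 YAP and TGF-beta responsive genes, 0 were called by limma, edgeR or DESeq2 and 0 had an unadjusted p under 0.05 (limma), with a median of -0.291. Of 17 heat shock proteins and chaperonins, HSP90AA1 was the 1 called by limma, and the median was -0.059.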
